A study of Mus musculus with 9 samples.

Results

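AP-1 is the transcription factor formed by paired Fos and Jun proteins, and its genes belong to the immediate-early class, which cells switch on within minutes of a growth signal without making new protein first. The set described here holds 10 such genes, chosen by name: Fos, Fosb, Fosl1 and Fosl2 of the Fos family, Jun and Junb of the Jun family, the transcription factor genes Egr1 and Ier2, and the feedback genes Zfp36 and Dusp1. All 10 were found among the 18193 genes with a symbol of their own in the array's annotation, on 13 probe sets. A probe set is a group of short oligonucleotides that together read 1 transcript.

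The data are 9 Affymetrix arrays, each of 1 oral tumor from a mouse at the age of 1 year, with 3 tumors in each of 3 genotype groups. The p53-/- tumors had lost p53. In p53R172H/- tumors the other allele beside the missense allele R172H was null, and in p53R172H/+ tumors it was wild type. Per the series title Ras was activated in all 3 groups, and the labels write each genotype with a leading K that they do not explain; the sources used here do not give the promoter that drove the alleles, nor whether the p53R172H/+ tumors kept their wild-type allele. The design text sets tumors with mutant p53 against tumors without p53. The labels do not say whether the tumors of a group came from separate animals, and a p-value here covers only how these samples vary.

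In keratinocytes and squamous tumors, Ras signals through the kinases RAF, MEK and ERK, which activate the serum response factor and its ternary complex partners at the CArG box of immediate-early promoters, while CREB acts at the cyclic AMP response element, or CRE. The Fos and Jun proteins then bind DNA as dimers through a leucine zipper. The response is brief because its own products end it: Zfp36 destroys mRNAs with AU-rich ends and Dusp1 removes phosphate from MAP kinases.

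Reference promoters were in hand for 7 of the 10 genes (Fos, Fosb, Fosl2, Jun, Junb, Zfp36 and Dusp1, from RefSeq, build GRCm38.p6). Those of Fos, Dusp1, Junb and Zfp36 are shown because the levels of these genes are compared tumor by tumor further on. Each is the 250 bases before the transcription start, 5′ to 3′ along the gene's strand, with CRE cores (TGACG on either strand) and the CArG box in capitals. They lie at chr12:85473640-85473889 on the + strand (Fos), chr17:26508473-26508722 on the - strand (Dusp1), chr8:84978749-84978998 on the - strand (Junb) and chr7:28379229-28379478 on the - strand (Zfp36).
Fos: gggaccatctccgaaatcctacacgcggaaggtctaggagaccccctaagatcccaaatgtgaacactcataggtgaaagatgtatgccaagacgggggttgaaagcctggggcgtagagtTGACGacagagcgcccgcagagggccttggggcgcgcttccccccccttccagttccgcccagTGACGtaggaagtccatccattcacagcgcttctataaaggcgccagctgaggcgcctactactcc
Dusp1: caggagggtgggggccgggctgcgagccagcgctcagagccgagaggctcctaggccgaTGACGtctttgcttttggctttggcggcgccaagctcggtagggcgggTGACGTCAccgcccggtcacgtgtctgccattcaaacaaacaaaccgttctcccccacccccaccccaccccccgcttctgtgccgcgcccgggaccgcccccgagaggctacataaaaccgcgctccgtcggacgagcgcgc
Junb: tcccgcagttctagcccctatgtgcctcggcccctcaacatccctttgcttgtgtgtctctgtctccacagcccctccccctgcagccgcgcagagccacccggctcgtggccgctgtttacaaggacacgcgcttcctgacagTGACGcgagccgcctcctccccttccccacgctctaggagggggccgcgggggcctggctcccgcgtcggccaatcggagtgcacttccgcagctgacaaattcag
Zfp36: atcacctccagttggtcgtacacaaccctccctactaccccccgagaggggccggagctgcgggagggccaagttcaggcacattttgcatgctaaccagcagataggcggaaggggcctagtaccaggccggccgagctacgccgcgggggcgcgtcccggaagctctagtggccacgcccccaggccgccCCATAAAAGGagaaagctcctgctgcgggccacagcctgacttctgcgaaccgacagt

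Fos had CRE cores starting at -129 and -66 from the transcription start, and Dusp1 had one at -191 and a full CRE, TGACGTCA, from -143 to -136, which holds the core on both strands. Junb had a core at -106, and so had Fosb at -60, which made 4 of the 7 promoters with a CRE core, against 17.8% of 32851 mouse promoter windows of the same length. The CArG box was found in Zfp36 only, from -58 to -49, and in 1.47% of all windows, and the full CRE in Dusp1 only and in 1.55% of all windows. The AP-1 site TGANTCA was in none of the 7 and in 6.75% of all windows. These matches describe letters in a short window, and nothing about binding was measured. Bases further upstream and the promoters of Egr1, Ier2 and Fosl1 were not examined. A gene without a match here can therefore have one outside the window.

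Of the 10 genes, 9 passed the filter on dim probe sets and were tested in the fit over 12241 genes, with Fosb left out. Levels are MAS5 signal units on a linear scale, and fold changes are differences of mean log2 signal with their standard error (SE) from a limma fit over all 9 tumors. In none of the 4 comparisons did a member reach the adjusted limma p of 0.05, and none of the 12241 genes did (0% called in each). Members are therefore described as higher or lower on average, with their values. In a bulk tumor, fewer cells of a type and less RNA per cell cannot be told apart.

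**Figure D1:**
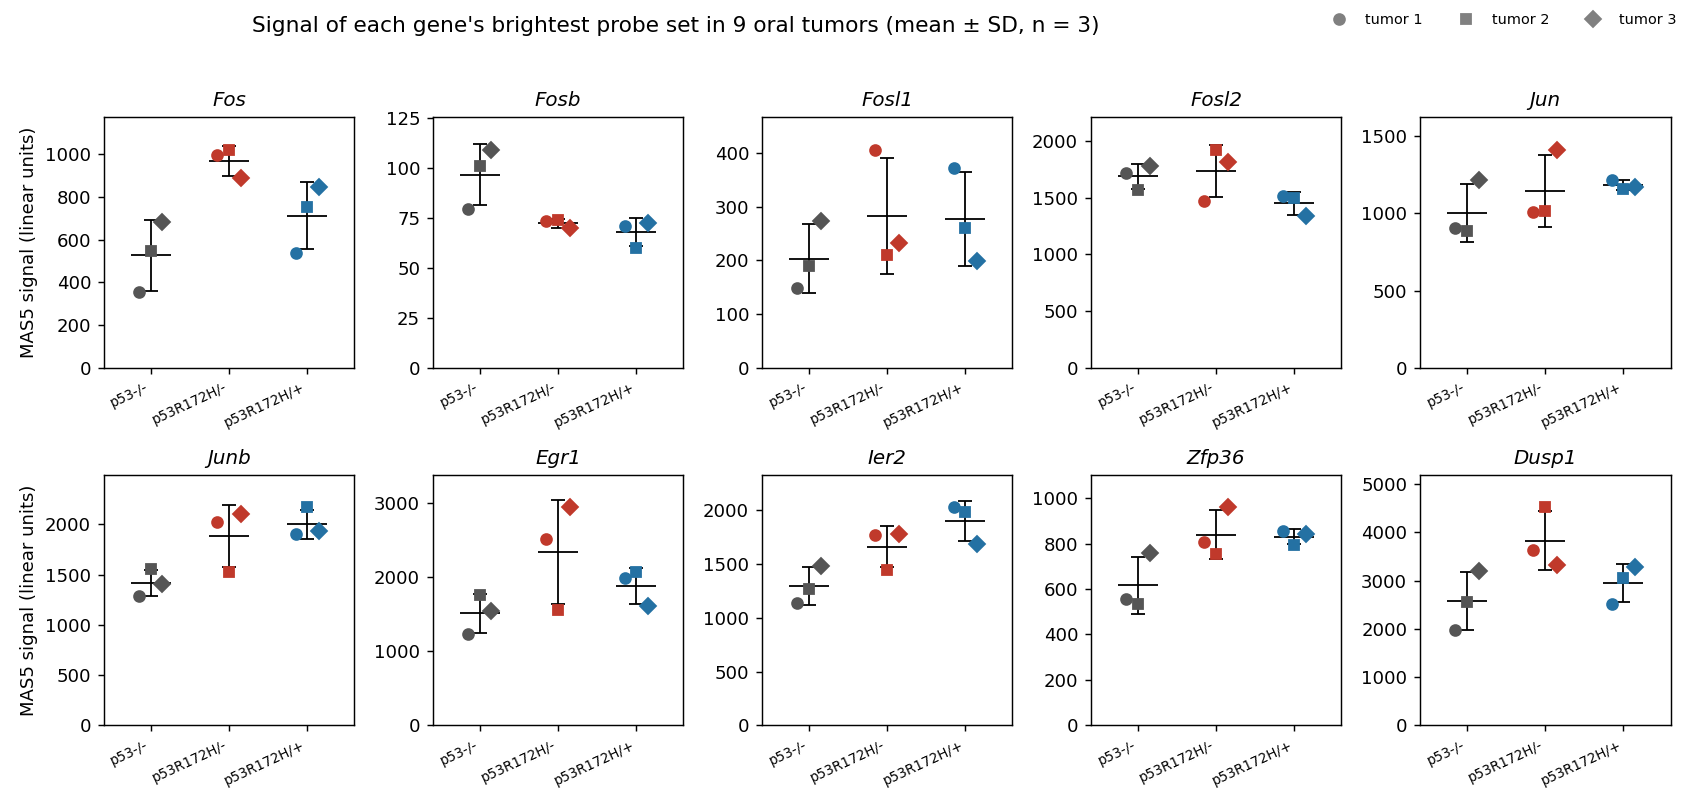
Signal in MAS5 units (linear axis from 0) of the brightest probe set of each of the 10 genes, by genotype group; points are tumors, the long tick is the mean and the bars are the SD of 3 tumors. The p53R172H/- tumors lie above all others for Fos and Dusp1, the p53R172H/+ tumors lie above all p53-/- tumors for Junb, Ier2 and Zfp36, and Fosb runs the other way.

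Fos, the best known partner in AP-1, had the widest spread of log2 signal over tumors among the 9 tested members (SD 0.50). It ran from 353 to 1021 signal units. It was at 353, 545 and 682 in p53-/- tumors 1, 2 and 3, at 998, 1021 and 889 in p53R172H/- tumors 1, 2 and 3, and at 539, 752 and 845 in p53R172H/+ tumors 1, 2 and 3. The p53R172H/- tumors were all above the other 6, while the other groups overlapped. Fos was 1.90-fold higher in p53R172H/- than in p53-/- tumors (log2 fold change 0.93 ± 0.24 SE, limma adjusted p = 0.216) and 1.38-fold higher than in p53R172H/+ tumors (0.47 ± 0.24 SE, adjusted p = 0.947). Between p53R172H/+ and p53-/- tumors the log2 fold change was 0.46 ± 0.24 (SE, adjusted p = 0.526). p53-/- tumor 1 was the lowest of all. Without it, the value was 0.67 for p53R172H/- and 0.20 for p53R172H/+ tumors against p53-/-.

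Dusp1, the phosphatase gene of the feedback arm, followed the same order. Its signals were 1984, 2559 and 3189 in p53-/- tumors 1, 2 and 3, then 3642, 4512 and 3327 in the p53R172H/- tumors and 2509.5, 3043 and 3279 in the p53R172H/+ tumors. Again the 3 p53R172H/- tumors were above the other 6 and the other groups overlapped. The log2 fold change of p53R172H/- against p53-/- was 0.59 ± 0.18 (SE, limma adjusted p = 0.254), and 0.41 without p53-/- tumor 1. Against p53R172H/+ it was 0.38 ± 0.18 (SE, adjusted p = 0.947), and p53R172H/+ against p53-/- was at 0.21 ± 0.18 (SE, adjusted p = 0.680) and at 0.034 without p53-/- tumor 1.

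Fosb, a close relative of Fos with the same DNA-binding zipper type, was dim and ran the other way. Its only probe set was at 79.6, 101 and 109.1 signal units in p53-/- tumors, at 73.4, 73.8 and 69.8 in p53R172H/- tumors and at 71.2, 60.1 and 72.5 in p53R172H/+ tumors, in tumor order, all below the filter at 114. Every tumor with p53R172H was below every p53-/- tumor. In a fit without the filter, its log2 fold change was -0.41 ± 0.12 (SE, limma adjusted p = 0.304) in p53R172H/- and -0.50 ± 0.12 (SE, adjusted p = 0.387) in p53R172H/+ tumors. The table gives no detection call for a probe set, so how much of this signal is background was not tested.

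Fosl1 encodes Fra-1, a Fos protein of later and longer-lasting ERK signalling. Its brighter probe set was at 148, 189 and 273 in p53-/- tumors, at 406, 209.6 and 231 in p53R172H/- tumors and at 372, 261 and 199 in p53R172H/+ tumors. All 3 groups overlapped. The p53-/- group overlapped the mutant groups only through its tumor 3, at 273. Within the mutant groups, p53R172H/- tumor 1 and p53R172H/+ tumor 1 stood highest. The log2 fold changes against p53-/- were 0.45 ± 0.32 (SE, limma adjusted p = 0.490) and 0.45 ± 0.32 (SE, adjusted p = 0.615) for p53R172H/- and p53R172H/+. They were 0.16 without p53R172H/- tumor 1 and 0.21 without p53R172H/+ tumor 1. Without p53-/- tumor 3 they were 0.69 for p53R172H/- and 0.68 for p53R172H/+. The dimmer probe set ran from 61.4 to 173 and moved with the brighter one over the 9 tumors (Pearson's r = 0.95, exact permutation p = 0.000457, adjusted p over 3 genes 0.00137; Spearman's rho = 0.88, exact p = 0.00308, adjusted 0.00923; r = 0.86 without the 2 tumors farthest from the median). On the dimmer probe set all 3 p53R172H/- tumors, at 171, 100.3 and 104, were above the p53-/- tumors, at 61.4, 70.0 and 93.2.

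Fosl2 encodes Fra-2, another Fos protein of epithelial cells, and was the tested member with the narrowest spread of log2 signal (SD 0.17), at 1334 to 1920 signal units. The brighter probe set was at 1720.3, 1563 and 1774 in p53-/- tumors, at 1474, 1920.2 and 1810.01 in p53R172H/- tumors and at 1516, 1496 and 1334 in p53R172H/+ tumors. The p53R172H/+ tumors were all below the p53-/- tumors (log2 fold change -0.22 ± 0.11 SE, limma adjusted p = 0.524), while p53R172H/- and p53-/- tumors overlapped (0.034 ± 0.11 SE, adjusted p = 0.896). On the dimmer probe set the p53R172H/- tumors, at 399, 417 and 377, were all above the p53R172H/+ tumors, at 266, 216 and 183, and the p53-/- tumors, at 628, 249 and 270.1, spanned both. The 2 probe sets were not called as moving together (r = 0.63, exact permutation p = 0.0707, adjusted p over 3 genes 0.106; rho = 0.60, exact p = 0.0968, adjusted 0.0968; r = 0.39 without the 2 farthest tumors).

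Jun, the founding partner of Fos in AP-1, had overlapping values in all groups. Its brighter probe set was at 906, 885 and 1216 in p53-/- tumors, at 1011, 1015 and 1412 in p53R172H/- tumors and at 1219, 1159 and 1174 in p53R172H/+ tumors. Tumor 3 was highest in the p53-/- and p53R172H/- groups. The log2 fold changes against p53-/- were 0.19 ± 0.16 (SE, limma adjusted p = 0.557) and 0.26 ± 0.16 (SE, adjusted p = 0.576). The first was 0.030 without p53R172H/- tumor 3. The dimmer probe set ran from 481 to 731 and its lowest tumor was p53R172H/- tumor 1 (r with the brighter one = 0.56, exact permutation p = 0.1197, adjusted p over 3 genes 0.120; rho = 0.67, exact p = 0.0589, adjusted 0.0883; r = 0.47 without the 2 farthest tumors).

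Junb, a Jun protein with weaker activating power and a role in epidermal differentiation, was higher on average in both mutant groups. It was at 1289, 1551 and 1406 in p53-/- tumors, at 2021, 1526 and 2103 in p53R172H/- tumors and at 1899, 2166 and 1931 in p53R172H/+ tumors. Only p53R172H/- tumor 2 kept the p53R172H/- group from standing wholly above p53-/-. The log2 fold change was 0.50 ± 0.13 (SE, limma adjusted p = 0.366) in p53R172H/+ and 0.40 ± 0.13 (SE, adjusted p = 0.261) in p53R172H/- tumors, and 0.55 in the latter without tumor 2.

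Egr1, a zinc finger factor that is a direct ERK and serum response factor target, was at 1237, 1755 and 1548 in p53-/- tumors, at 2519, 1559 and 2939 in p53R172H/- tumors and at 1987, 2063 and 1610.03 in p53R172H/+ tumors. Both ends of the mutant range were in the p53R172H/- group, and all groups overlapped. Its log2 fold change was 0.59 ± 0.23 (SE, limma adjusted p = 0.286) in p53R172H/- against p53-/- tumors, 0.86 without p53R172H/- tumor 2 and 0.40 without tumor 3, and 0.32 ± 0.23 (SE, adjusted p = 0.607) in p53R172H/+ tumors.

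Ier2, a nuclear protein gene of the early response, had the smallest p of the members in p53R172H/+ against p53-/- tumors. It was at 1138, 1267 and 1482 in p53-/- tumors, at 1772, 1443 and 1778 in p53R172H/- tumors and at 2028, 1988 and 1689.9 in p53R172H/+ tumors. The last group was wholly above p53-/- (1.47-fold, log2 fold change 0.56 ± 0.13 SE, limma adjusted p = 0.362). The p53R172H/- group overlapped p53-/- through tumor 2 (0.36 ± 0.13 SE, adjusted p = 0.271).

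Zfp36 encodes tristetraprolin, which shortens the life of Fos and cytokine mRNAs. Its signals were 554, 534 and 759 in p53-/- tumors, 807, 753 and 959 in p53R172H/- tumors and 855, 792 and 842 in p53R172H/+ tumors. p53-/- tumor 3 was within the range of the p53R172H/- tumors and below all p53R172H/+ tumors. The log2 fold changes were nearly equal in both mutant groups, 0.46 ± 0.15 (SE, limma adjusted p = 0.255) in p53R172H/- and 0.45 ± 0.15 (SE, adjusted p = 0.402) in p53R172H/+ tumors.

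**Figure D2:**
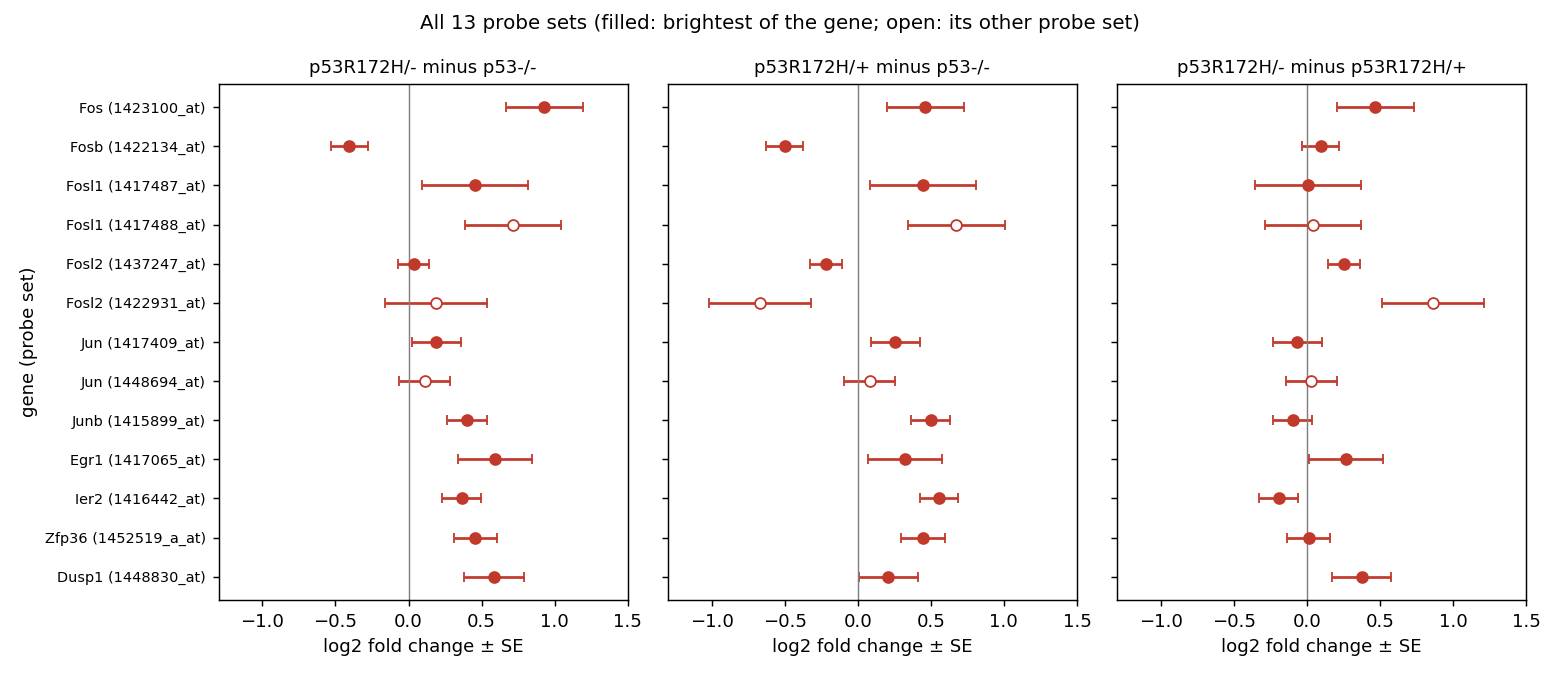
Log2 fold change with its SE (horizontal bars) of all 13 probe sets in 3 comparisons, from a limma fit to every named probe set with no filter on dim ones, so that the SE can differ slightly from the text; filled points are the brightest probe set of a gene and open points its other one. Most points lie right of 0 against p53-/- tumors, Fosb lies left of 0 in both, and no point passed an adjusted p of 0.05.

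Counted over the 9 tested members, all 9 were higher on average in p53R172H/- than in p53-/- tumors, where 43.8% of all tested genes were. The unadjusted limma p was under 0.05 for 6 of them (Fos, Dusp1, Zfp36, Junb, Ier2 and Egr1), all higher, against 6.45% of all genes that were higher and 8.98% that were lower at that level. Without p53R172H/- tumor 3 that count was 2 and without p53-/- tumor 1 it was 3. The groups did not overlap for 2 members, Fos and Dusp1, both higher, where 9.08% of all genes did so. The median log2 fold change of the members was 0.45, beside -0.033 over all genes. Fosb, which the filter left out of these counts, was lower (-0.41 ± 0.12 SE in the fit without the filter). The members were chosen with earlier results of these data known, so counts above the shares of all genes are not independent support.

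For p53R172H/+ against p53-/- tumors, 8 of 9 were higher on average (43.8% of all genes) and 3 had an unadjusted limma p under 0.05, all higher (4.74% of all genes were higher and 5.54% lower at that level), namely Ier2, Junb and Zfp36. Without p53-/- tumor 3 this count was 5. These same 3 members stood wholly above the p53-/- tumors (7.07% of all genes) and Fosl2 wholly below (8.83% of all genes). The median was 0.45, beside -0.029 over all genes. Both comparisons use the same p53-/- tumors, so their likeness is not independent support.

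Between p53R172H/- and p53R172H/+ tumors, 6 members were higher and 3 lower on average (48.1% of all genes were higher). None had an unadjusted limma p under 0.05, where 2.02% of genes were higher and 2.96% lower at that level. Fos and Dusp1 were wholly higher in p53R172H/- tumors (5.26% of all genes) and no member was wholly lower (6.61% of all genes), and the median was 0.011, beside -0.0069 over all genes. With both mutant groups averaged against p53-/-, 8 of 9 members were higher on average (43.5% of all genes) and 6 had an unadjusted limma p under 0.05, all higher (6.83% of all genes were higher and 9.02% lower at that level). None of the 9 tested members had both mutant groups wholly above (3.32% of all genes) or wholly below (3.92% of all genes) the p53-/- tumors. The smallest adjusted p there was that of Ier2 (0.46 ± 0.11 SE, adjusted p = 0.197), followed by Junb (0.45 ± 0.11 SE, adjusted p = 0.197).

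The members did not move as 1 block from tumor to tumor. p53-/- tumor 1 held the lowest signal of 6 of the 9 tested members (Fos, Dusp1, Fosl1, Egr1, Junb and Ier2), and p53-/- tumor 2 that of Jun and Zfp36. The highest signals were scattered: p53R172H/- tumor 2 held those of Fos, Dusp1 and Fosl2, p53R172H/- tumor 3 those of Egr1, Jun and Zfp36, p53R172H/- tumor 1 that of Fosl1, p53R172H/+ tumor 1 that of Ier2 and p53R172H/+ tumor 2 that of Junb. Averaged over the 9 members, the log2 signal around each gene's own mean was lowest at -0.49 in p53-/- tumor 1 and highest at 0.27 in p53R172H/- tumor 3.

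**Figure D3:**
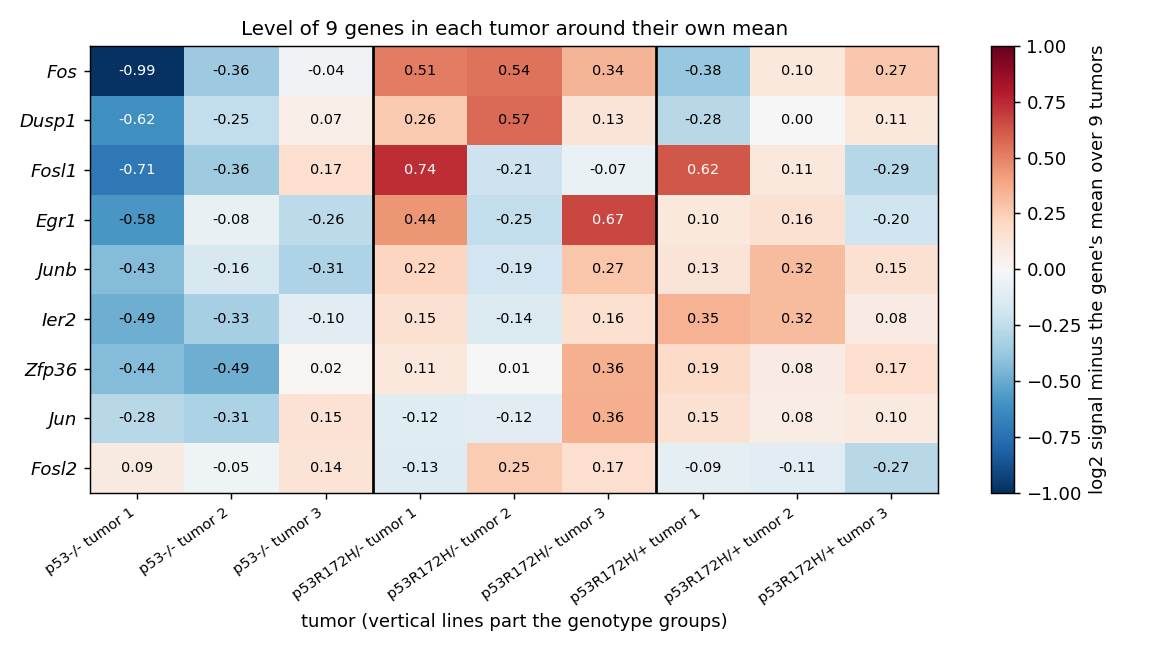
Log2 signal of each of the 9 tested genes (rows) in each tumor (columns) minus that gene's mean over the 9 tumors; red is above and blue below the gene's own mean. In p53R172H/- tumor 2, Fos (0.54) and Dusp1 (0.57) were at their highest while Egr1 (-0.25), Junb (-0.19) and Ier2 (-0.14) were below their means.

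Fos and Dusp1 tracked each other most closely. Over the 9 tumors Pearson's r of their log2 signals was 0.96 (exact permutation p = 3.86e-05, adjusted over 36 member pairs 0.00139) and Spearman's rho was 0.98 (exact p = 4.96e-05, adjusted 0.00179). It was 0.89 without the 2 tumors farthest from the median of Fos, and 0.92 for deviations from the group means, so it was also present within groups. With each tumor left out in turn it stayed between 0.92 and 0.98. Of the 12240 other tested genes, Dusp1 had the highest r with Fos, and for Dusp1 Fos was number 2. Of all 74914920 pairs of tested genes, 0.0241% had an r at least as high, and 0.391% for deviations from the group means.

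A further 3 of the 36 pairs had an adjusted p under 0.05 (exact permutation of Pearson's r). Jun and Zfp36 had r = 0.88 (p = 0.00175, adjusted 0.0314; rho = 0.83, exact p = 0.00827, adjusted 0.0744; 0.95 within groups; 0.74 without the 2 farthest tumors). This pair was not called with the median over a gene's probe sets in place of the brightest (r = 0.74, adjusted exact permutation p = 0.148). Junb and Ier2 had r = 0.89 (exact p = 0.00363, adjusted 0.0327; rho = 0.77, p = 0.0214, adjusted 0.154; 0.64 within groups; 0.85 without the 2 farthest tumors). Junb and Egr1 had r = 0.83 (exact p = 0.00318, adjusted 0.0327; rho = 0.90, p = 0.00203, adjusted 0.0365; 0.94 within groups; 0.69 without the 2 farthest tumors). With 1 tumor fewer their r ran from 0.74 to 0.94, but the adjusted p often missed 0.05: only Fos with Dusp1 passed without p53-/- tumor 1, without p53-/- tumor 2, without p53R172H/- tumor 2 or 3 or without p53R172H/+ tumor 1. Junb with Ier2 missed 0.05 whichever tumor was left out (lowest adjusted p of the exact permutation 0.0583).

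**Figure D4:**
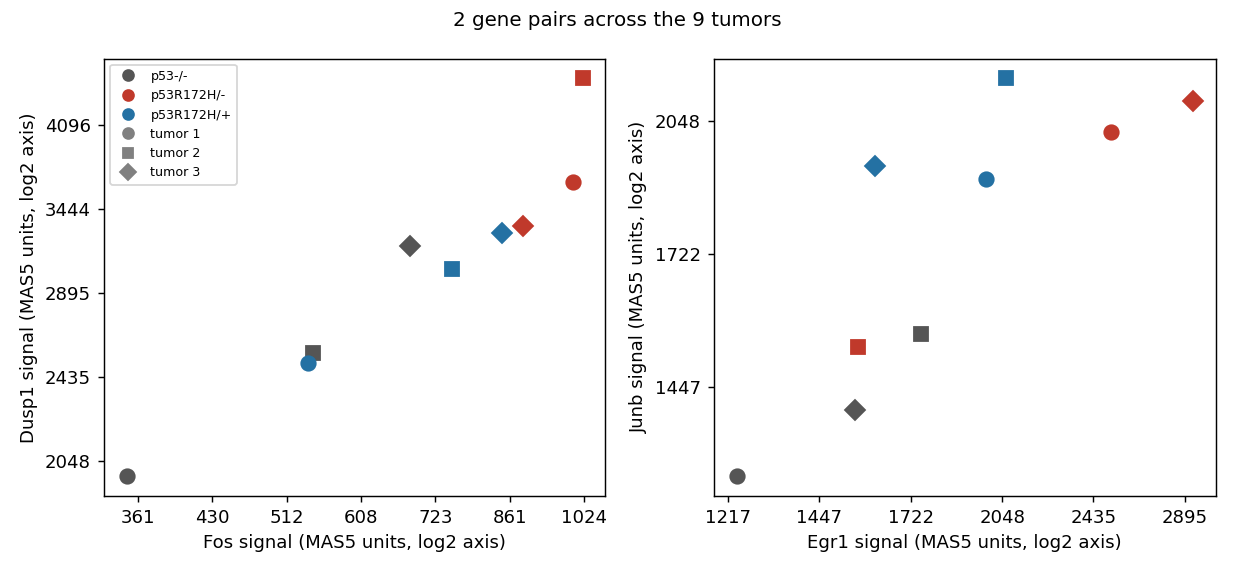
Signal of Dusp1 against Fos (left) and of Junb against Egr1 (right) in the 9 tumors, both axes logarithmic; color gives the genotype group and shape the tumor number. Dusp1 rises with Fos through all 3 groups (r = 0.96), while for Egr1 and Junb (r = 0.83) p53R172H/- tumor 2 lies among the p53-/- tumors.

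Fos was less close to the other early genes. Its r with Egr1 was 0.55 over all tumors (exact permutation p = 0.109, adjusted 0.247; rho = 0.40, p = 0.291, adjusted 0.617; 0.32 without the 2 farthest tumors) and 0.045 for deviations from the group means. Dusp1 and Egr1 had r = 0.35 (exact p = 0.359, adjusted 0.495; rho = 0.32, p = 0.410, adjusted 0.658; 0.19 without the 2 farthest tumors) and -0.28 within groups. Fosl2 stood apart with the lowest value of the 36, r = -0.51 with Junb (exact p = 0.159, adjusted 0.287; rho = -0.45, p = 0.2298, adjusted 0.591; -0.46 without the 2 farthest tumors). The median r over the 36 pairs was 0.55, or 0.23 for deviations from the group means, beside 0.016 over all pairs of tested genes on either scale. An r over 0.6 was found for 12 of the 36 pairs, 33.3%, where 8.69% of all pairs had one, and within groups for 8, 22.2%, against 10.7%. Without p53-/- tumor 1, which held the lowest signal of 6 members, the median r over the 36 pairs was 0.26 in place of 0.55.

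**Figure D5:**
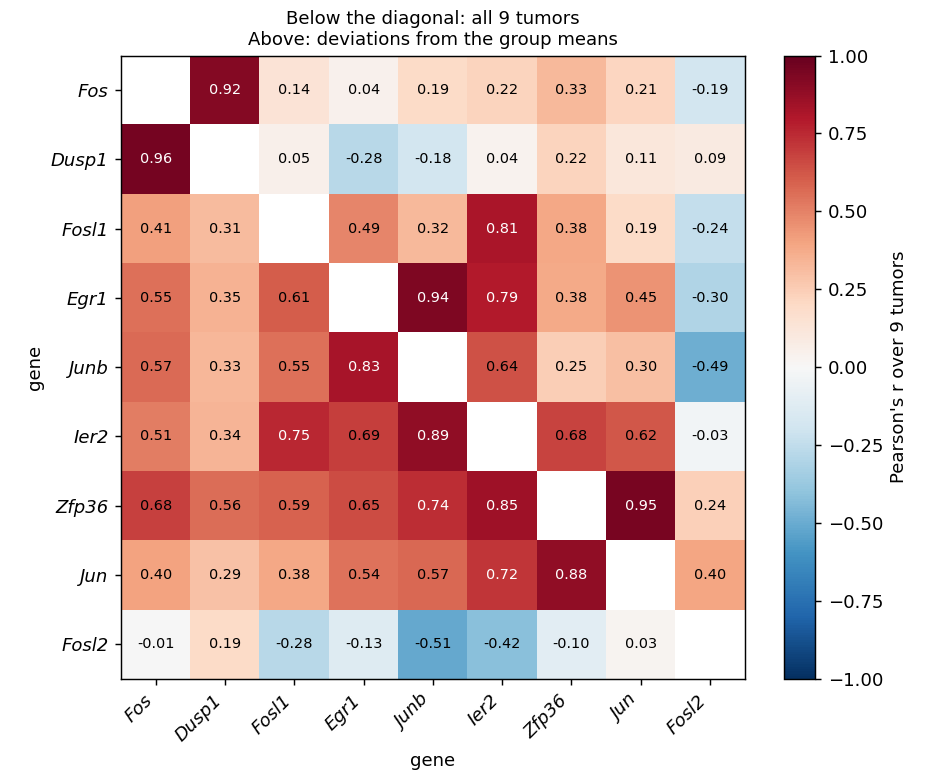
Pearson's r of log2 signal for each pair of the 9 tested genes: below the diagonal over all 9 tumors, above it for deviations from the group means. Fos with Dusp1 (0.96 and 0.92), Jun with Zfp36 (0.88 and 0.95) and Egr1 with Junb (0.83 and 0.94) keep a high r on both sides, while Fos with Egr1 goes from 0.55 to 0.045.

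The genes outside the set whose pattern over the 9 tumors was most like the members' mean were Atad1, Haus6, Tmed7, Papolg, Ddx20 and Tmem30a (r from 0.92 to 0.97 among 12232 genes), and those most opposed were Il10ra, Svbp and Cndp2 (r from -0.95 to -0.98). Atad1, a gene of protein extraction from mitochondrial membranes, ran only from 413 to 522 signal units. Its lowest tumor was p53-/- tumor 1 and its highest p53R172H/- tumor 1. These values are given as a description.

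Of 14 further AP-1 dimer genes, which encode other bZIP partners, 10 were tested and none was called by limma in any comparison. In p53R172H/- against p53-/- tumors, 4 were higher and 6 lower on average, and 1 had an unadjusted p under 0.05, Batf3, a partner of Jun in immune cells (-0.51 ± 0.19 SE). Of all genes, 43.8% were higher on average there, and 8.98% were lower with an unadjusted limma p under 0.05. Jund, the Jun gene that growth signals induce least, was at 1018, 1379.8 and 1025 in p53-/- and at 945, 988 and 849.95 in p53R172H/- tumors, the latter all lower (-0.29 ± 0.16 SE, adjusted p = 0.403), by -0.14 without p53-/- tumor 2. Jdp2, a repressor that pairs with Jun, was at 161, 190.1 and 174 in p53-/- and at 186, 394 and 196 in p53R172H/+ tumors (0.48 ± 0.28 SE, adjusted p = 0.555). Without p53R172H/+ tumor 2 the difference was 0.13.

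Of 39 other immediate-early genes, 37 were tested. In p53R172H/- against p53-/- tumors 25 were higher and 12 lower on average, with an unadjusted limma p under 0.05 for 9 higher and 2 lower, none called, and a median of 0.23. Over all genes 43.8% were higher on average, and 6.45% were higher and 8.98% lower at that level. In p53R172H/+ tumors 25 were also higher, with 9 higher and 1 lower at that level, none called, and a median of 0.101. There the shares over all genes were 43.8%, 4.74% and 5.54%. Myc, the growth transcription factor gene, was at 473, 449 and 579.95 in p53-/-, at 709, 640.1 and 695 in p53R172H/- and at 653, 691 and 681 in p53R172H/+ tumors. Both mutant groups were wholly above p53-/- (0.45 ± 0.11 SE, adjusted p = 0.216, and 0.44 ± 0.11 SE, adjusted p = 0.366). Ier3, a survival gene of the early response, was at 0.60 ± 0.13 (SE, adjusted p = 0.362) in p53R172H/+ tumors.

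Some early genes ran against this in p53R172H/- tumors. Gadd45b, a stress gene upstream of p38 and JNK, was at 784, 652 and 678 in p53-/- and at 485, 505 and 535 in p53R172H/- tumors (-0.47 ± 0.11 SE, limma adjusted p = 0.216). Plk3, a stress-responsive kinase gene, was at -0.48 ± 0.14 (SE, adjusted p = 0.244). In each the p53R172H/- tumors were all below the p53-/- tumors.

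Of 23 genes for upstream regulators, 16 were tested and none was called by limma. In p53R172H/- against p53-/- tumors, 9 were higher and 7 lower on average (43.8% of all genes were higher), with a median of 0.039. Srf, which encodes the serum response factor, was at 555, 566 and 515 in p53-/- and at 672, 626 and 589 in p53R172H/- tumors, all higher (0.21 ± 0.098 SE, adjusted p = 0.351). Map2k2, which encodes the kinase MEK2, was lower in all 3 (-0.37 ± 0.10 SE, adjusted p = 0.217). In p53R172H/+ tumors Elk4, a ternary complex factor gene, was at -0.23 ± 0.095 (SE, adjusted p = 0.466), and at -0.15 without p53R172H/+ tumor 3.

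Of 30 genes known as AP-1 targets, 24 were tested, and 14 were higher in p53R172H/- and 16 in p53R172H/+ than in p53-/- tumors, with medians of 0.079 and 0.041 and none called by limma. Of all genes, 43.8% were higher in each of these comparisons. Mmp13, a collagenase gene with an AP-1 site, was at 276, 52.3 and 254 in p53-/- tumors, at 299, 618 and 518 in p53R172H/- tumors and at 1104, 964 and 727 in p53R172H/+ tumors. Both mutant groups were wholly above p53-/-, by 1.56 ± 0.57 (SE, adjusted p = 0.277) and 2.57 ± 0.57 (SE, adjusted p = 0.362) on the log2 scale. The value of 52.3 lies below the floor of 52.6 and was set to it, and without that tumor, p53-/- tumor 2, the differences were 0.79 and 1.79. Bcl3, also on this list, was at 235, 251 and 282 in p53-/- and at 403, 393 and 344 in p53R172H/- tumors (0.57 ± 0.12 SE, limma adjusted p = 0.216). Ereg, an EGF receptor ligand gene, was lower in all p53R172H/- tumors (-0.59 ± 0.15 SE, adjusted p = 0.216). In that comparison 5 listed genes were higher and 1 lower at an unadjusted limma p under 0.05 (6.45% and 8.98% of all genes).

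Markers of the tissue and of other cells were read beside the members. The epithelial markers, 13 of 14 tested and including the basal keratins Krt5 and Krt14, summed to between 124900 and 142100 signal units in every tumor, a sum that a few very bright keratins dominate. Single markers varied more: Krt4, a keratin of mucosal differentiation, ran from 472 to 13502, and Epcam was wholly higher in p53R172H/- than in p53-/- tumors (0.85 ± 0.32 SE, limma adjusted p = 0.284). The summed skeletal muscle markers, 19 of 19 tested, ran from 4129 to 7468 in p53-/- tumors, from 1539 to 7836 in p53R172H/+ tumors, and were 1879.7, 47296 and 21700.5 in p53R172H/- tumors 1, 2 and 3. Fos, Dusp1 and Fosl2 had their highest signal in p53R172H/- tumor 2, the tumor with the most muscle signal. With p53R172H/- tumors 2 and 3 left out, so that the group's lone tumor is assumed to vary like the other groups, Fos was at 0.98 and Dusp1 at 0.53 against p53-/-, and 5 members had an unadjusted limma p under 0.05.

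The fibroblast markers, 12 of 13 tested, summed to between 25280 and 40480 in p53-/- tumors, 20230 and 27840 in p53R172H/- tumors and 30090 and 38380 in p53R172H/+ tumors. Marker by marker, 9 were lower and 3 higher on average in p53R172H/- than in p53-/- tumors, with a median log2 fold change of -0.69. Of all genes, 43.8% were higher there. An unadjusted limma p under 0.05 was found for 9 markers, all lower (8.98% of all genes), and none was called. In 8 the p53R172H/- tumors were wholly lower (13.8% of all genes). For p53R172H/+ against p53-/- the median was 0.0040. The summed macrophage and neutrophil markers, 14 of 16 tested, ran from 25060 to 26760 in p53-/-, 26210 to 36350 in p53R172H/- and 30070 to 37270 in p53R172H/+ tumors, the last wholly above the p53-/- tumors as for Junb, Ier2 and Zfp36. S100a8 and S100a9, also listed here as AP-1 targets, dominate that sum, at 11460 and 10088 in p53-/- tumor 1. The mean log2 signal of the list weighs each marker alike. It ran from 8.76 to 9.16 in p53-/-, 8.87 to 9.65 in p53R172H/- and 9.42 to 9.59 in p53R172H/+ tumors. These lists are expressed by cells that also use early genes, and their part in the members' values was not tested. The heat shock genes, 12 of 12 tested, respond to tissue handling as early genes do. Their median log2 fold change was 0.12 in p53R172H/- and 0.014 in p53R172H/+ against p53-/- tumors. Higher on average were 11 and 7 of them, where 43.8% of all genes were in each comparison. Hsp90aa1 was at 0.35 ± 0.073 (SE, limma adjusted p = 0.216) in p53R172H/- tumors. The log2 ratio of 3′ to 5′ signal of the Actb control, a sign of RNA integrity that is higher in shorter RNA, was 0.59 to 0.75 in p53-/-, 0.39 to 0.64 in p53R172H/- and 0.45 to 0.57 in p53R172H/+ tumors; its part in the members' values was not tested, and the Gapdh ratio ran only from -0.11 to 0.046. With that Gapdh ratio as a covariate, the members' median in p53R172H/+ against p53-/- tumors was 0.28 in place of 0.45, and in p53R172H/- tumors it was 0.40. The count of members with an unadjusted limma p under 0.05 then went from 6 to 5 for p53R172H/-, from 3 to 2 for p53R172H/+ and from 6 to 4 for both mutant groups against p53-/-, while Fos was at 0.93 and Dusp1 at 0.60 in p53R172H/- tumors.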

How the data were processed

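Total RNA of 9 tumors was purified, labelled with biotin as cRNA and read on Affymetrix arrays (per the labels' protocols). For every probe set the authors deposited a linear signal intensity in each array, made with MAS5 per the submitters' processing notes. The sources used here give neither its version nor its scaling. Array medians were 109 to 123 signal units, and the number of arrays limits the precision.

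Of 45101 probe sets, 34945 were tied to a single symbol by the platform's annotation, 932 to several, 9160 to none and 64 were controls. Of the named ones 34741 matched the GRCm38.p6 gene table, which changed 0 symbols and updated 4 older names in the lists. Signals below a floor at the 20th percentile (52.6) were set to that floor before log2. A gene's value was that of its brightest probe set on average, and genes whose mean was under 114, the median of non-control values, were left out, which left 12241 of 18193 genes. Group means were estimated from the 9 arrays together with limma 3.58.1 (R 4.3.3; lmFit, eBayes with a variance trend), two-sided, Benjamini-Hochberg adjusted over all genes tested, threshold 0.05. Correlations over tumors were tested by exact two-sided permutation of pairings (smallest possible p 5.51e-06) and adjusted over the 36 pairs of tested members.

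Other lists name the genes with the smallest p in either comparison with p53-/-, up to 4 for each, of which some are given. The members and lists were chosen with earlier results of these data known. On simulated data for p53R172H/- against p53-/- with 12241 genes, 80.7% of 2-fold and 95.6% of 4-fold changes were called, with 4.88% of calls false. There 200 genes were changed, and the noise was normal and independent from gene to gene, unlike in real tumors. Changes under 2-fold, as all members had, were not simulated. No targeted-gene check was made, so the labels were taken as given. Alternatives covered normalization, floor, filter, probe set choice, variance model, covariates, a block and left-out tumors.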

Additional observations from a re-analysis of the deposited data

Results flagged for a closer look

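The dimmer probe set of Fosl2, which encodes the AP-1 protein Fra-2, was singled out because every p53R172H/- tumor lay above the mean log2 signal of the p53-/- tumors and every p53R172H/+ tumor lay below it. The mutant groups differed by 0.86 on the log2 scale. That mean rests on 3 tumors of which 1 was at 628 and the others at 249 and 270.1, and the difference between the mutant groups was not called (limma over all named probe sets, adjusted p = 1). On the brighter probe set of Fosl2 the same difference was 0.25 ± 0.11 (SE), without all p53R172H/- tumors lying above the p53R172H/+ tumors.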

How the results depend on the processing

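No alternative brought a member to an adjusted limma p of 0.05 in any comparison (0 called in all 87 fits, lowest adjusted p 0.093 with the muscle covariate), nor a probe set of a member (10 fits), and 766 of 783 fold changes kept their direction. The other 17 were of fold changes under 0.1 in size. With the muscle covariate, Fosl2 in p53R172H/- against p53-/- was at -0.045, and Junb and Zfp36 in p53R172H/- against p53R172H/+ at 0.028 and -0.0266. Without the 2 p53R172H/- tumors with the most muscle signal, a setting added after seeing the data, these were -0.19, 0.018 and -0.038. With 1 tumor left out, Fosl2 in the first comparison ran from -0.044 to 0.15, and in the second Junb ran from -0.18 to 0.047, Zfp36 from -0.088 to 0.086, Fosl1 from -0.28 to 0.25 and Jun from -0.23 to 0.016. The counts of members with an unadjusted p under 0.05 were also added after seeing the data. For p53R172H/- against p53R172H/+ the count went from 0 to 1 under quantile normalization, the median over probe sets or robust eBayes and to 2 with only the groups compared, and ran from 0 to 2 with 1 tumor left out. It ran from 2 to 6 for p53R172H/- and from 2 to 5 for p53R172H/+ against p53-/-, and from 4 to 6 for both mutant groups. Under quantile normalization 1 member in place of 2 did not overlap between the mutant groups. Member pairs called numbered 4, then 7 after median scaling and 1 to 3 with 1 tumor left out. The cause of these shifts was not tested.

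Deviations of same-numbered tumors correlated between -0.49 and 0.24. Tumors with different numbers were not set beside them, so whether the number marks a batch was not tested. With the tumor number as a replicate block, 0 members were called in any comparison, and 2 in place of 0 had an unadjusted p under 0.05 between the mutant groups.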
